A study of Mus musculus with 24 samples.

Results

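The genes described here are 100 genes whose mean level in sorted XX pre-granulosa cells of the mouse fetal gonad was higher at E12.5 and E13.5 (E for embryonic day) than at both E11.5 and E15.5. They were taken from a deposited table of 32040 gene symbols in TPM, a transcript level scaled to gene length and to the library total. Each gene was scored as log2 of the ratio of the smaller of its E12.5 and E13.5 means to the larger of its E11.5 and E15.5 means, with 1 TPM added to each. Predicted genes and pseudogenes were left out by symbol, which left 23928 symbols, and the 100 highest scores were kept. Scores ran from 2.63 for Snord85 to 0.48 for Cpsf4l, with a median of 0.62, and 8 genes scored above 1. The genes were thus chosen by their XX TPM values, and XX levels and differences between XX and XY libraries are given as description, without a test. The XY libraries played no part in the choice, and tests are given for them alone.

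RNA was sequenced from about 40000 sorted cells per library, in 24 libraries that form 8 groups of 3 replicates. Pre-granulosa cells of female (XX) embryos carried the Tg(Enh8-mCherry) transgene, and Sertoli cells of male (XY) embryos came from the SOX9-IRES-GFP line, in which the fluorophore is read from the Sox9 transcript. Each sex was collected at 4 stages, the outer ones E11.5 and E15.5 and the middle ones E12.5 and E13.5. Sex, mouse line and fluorophore change together and cannot be told apart. Nothing in the labels says that replicates came from separate litters, so p-values measure the spread between these libraries, which may be technical. The comparison asks how the transcriptomes of ovarian and testicular supporting cells diverge with time.

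Total counts ran from 11275251 to 23912005 in XX libraries and from 16801691 to 37256881 in XY libraries. Amh, the hormone made by Sertoli cells, reached 3368 to 4659 TPM in XY libraries from E12.5 on and 8.07 TPM or less in XX libraries. Foxl2, a defining transcription factor of pre-granulosa cells, was at 7.33 to 19.6 TPM in XX libraries from E12.5 on and at 0.14 TPM or less in XY libraries. The XX E11.5 libraries stood apart from one another. Foxl2 was at 1.35, 15.8 and 2.32 TPM in replicates 1, 2 and 3, and the summed TPM of 11 erythroid markers was 36460, 11034 and 88286, against 2432 to 5541 at XX E12.5. The summed TPM of 12 immune markers was 439, 245 and 652 in the same libraries and 96.4 to 103 at E12.5. For XX E13.5 replicate 1 the labels disagree on the stage, and it was kept at E13.5 as its title and description have it. Without it, the rule returned 85 of the 100 genes.

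Pre-granulosa cells are the supporting cells of the fetal ovary. They arise from the same progenitors as Sertoli cells, settle on the ovarian fate through WNT4, RSPO1 and FOXL2, and later surround the oocytes as granulosa cells. In the stages covered here they leave the cell cycle while the germ cells beside them approach meiosis, and Sertoli cells of the same age form the testis cords and secrete AMH. None of the 16 pre-granulosa markers or of the 15 Sertoli markers examined was among the 100 genes, so the genes are called by their time course and not as markers of the cell type.

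By RefSeq annotation, 85 of the 100 genes code for proteins. A further 10 are small RNA genes (6 miRNA, 3 snoRNA and 1 Y RNA), 4 are long noncoding RNAs, and H2bc27 found no match by symbol. The small RNA genes took 4 of the 10 highest scores, but on very few reads: Snord85 held 1 count in XX E12.5 replicate 2, 1 in XX E13.5 replicate 2 and none in the other 22 libraries. Its score of 2.63 rests on those 2 counts, because 1 count of so short a gene is worth 43.2 TPM in one of these libraries and 15.6 TPM in the other. Mir3101 held between 0.16 and 1.20 estimated counts in 3 of the 6 middle XX libraries and none in the outer ones. Mir678 held 0.65 to 5.02 in the middle XX libraries, 0 to 2.06 in the outer ones and 0 to 8.16 in XY, the most of any of the 10. Mir3968 reached 3.20 counts, Mir6335 1 count and Mir423 2 counts in their highest libraries. None of the 10 passed the filter on low counts, so none was tested.

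The mature sequences of the 2 highest-scoring miRNA genes are shown to identify them, from RefSeq on GRCm38.p6, with the seed (bases 2 to 8) in capitals. Polyadenylated RNA was sequenced, so the counts are of longer transcripts that cover these genes and not of the mature miRNAs. Mir3101 lies inside Rab4b (chr7:27176006-27176093) and Mir678 inside Prmt2 (chr10:76207326-76207409).
mmu-miR-3101-3p: uAGCUUUGguggauggucuuu
mmu-miR-3101-5p: gGUACCAUugacuaaagcuag
mmu-miR-678: gUCUCGGUgcaaggacuggagg
The 8 mature arms annotated for the 6 miRNA genes had 8 different seeds. Of the 10 small RNA genes, 9 lie inside a longer gene. The host means did not share one course: Rpl3, host of Snord83b, was at 401 and 464 TPM in XX at E12.5 and E13.5 against 320 and 271 TPM at E11.5 and E15.5, and Cdk13, host of Mir466i, was at 11.2 and 10.1 against 12.1 and 13.1 TPM.

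Promoters were searched for motifs of factors known in the gonad or in early response. RefSeq promoters of 250 bases before to 50 after the start were at hand for 74 of the 100 genes and for 12128 genes in all, and a match on either strand was counted. The NR5A1 motif AAGGTCA was in 6.76% of the members' promoters (5 genes) and in 4.25% of all. The AP-1 motif TGANTCA was in 8.11% and 6.25%, and the GATA motif AGATAA in 8.11% and 8.20%. The RUNX motif TGTGGTT was in 2.70% and 4.29%, the forkhead motif GTAAACA in 2.70% and 3.09%, the TCF/LEF motif ATCAAAG in 2.70% and 3.16%, and the cAMP response element TGACGTCA in 1.35% and 3.31%. The letters CCAAT were in 47.3% and 43.0%. A match is a description of these letters and not a site of binding.

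The promoters of Gjb5 and Susd3 are printed because both hold the NR5A1 letters and both genes belong to the list although their XY courses run in opposite directions. Aldh1b1 is printed as the protein-coding gene with the highest score. Sequences run in the direction of transcription, and the matched letters are in capitals. AAGGTCA starts 193 bases before the start of Gjb5 and 155 bases before the start used for Susd3. AACCACA, the RUNX motif on the other strand, begins at base 24 counted from the start of Aldh1b1 as base 1. The Susd3 window lies inside the annotated gene (chr13:49230511-49248706), so the start used is not its outermost one. The windows are chr4:127358115-127358414 on the minus strand for Gjb5, chr13:49248245-49248544 on the minus strand for Susd3 and chr4:45798772-45799071 on the plus strand for Aldh1b1, on GRCm38.p6.
Gjb5: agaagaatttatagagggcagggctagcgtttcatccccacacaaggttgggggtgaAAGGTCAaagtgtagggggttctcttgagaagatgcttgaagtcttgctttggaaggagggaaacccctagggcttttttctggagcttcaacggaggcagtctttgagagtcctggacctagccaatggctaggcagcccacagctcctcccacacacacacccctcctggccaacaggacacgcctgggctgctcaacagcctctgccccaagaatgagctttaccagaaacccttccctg
Susd3: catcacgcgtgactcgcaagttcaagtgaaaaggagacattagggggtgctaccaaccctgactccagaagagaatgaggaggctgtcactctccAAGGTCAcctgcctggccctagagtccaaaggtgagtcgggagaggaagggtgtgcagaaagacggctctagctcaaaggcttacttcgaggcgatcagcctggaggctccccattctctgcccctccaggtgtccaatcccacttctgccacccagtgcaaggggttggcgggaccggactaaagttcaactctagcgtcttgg
Aldh1b1: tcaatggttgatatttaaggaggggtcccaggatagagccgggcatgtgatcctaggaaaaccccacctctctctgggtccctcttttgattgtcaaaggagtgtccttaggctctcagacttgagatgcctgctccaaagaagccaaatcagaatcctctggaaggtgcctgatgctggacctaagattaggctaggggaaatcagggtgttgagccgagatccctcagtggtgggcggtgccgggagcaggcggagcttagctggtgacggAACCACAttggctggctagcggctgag

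In XX libraries the 100 genes together held 6411 to 10879 summed TPM at E11.5, 14810 to 17174 at E12.5, 14698 to 15439 at E13.5 and 8375 to 9732 at E15.5. In XY libraries the same sum stayed between 10206 and 12697 TPM in all 12. The 6 ribosomal protein genes of the list made up most of it. Without them the XX sums were 1800.2 to 4008 TPM at E11.5, 5996 to 7131 at E12.5, 6183 to 6322 at E13.5 and 2741 to 3697 at E15.5. The smaller of the E12.5 and E13.5 means was at least 100 TPM for 18 genes, at least 10 TPM for 60 and under 1 TPM for 6. In 65 genes the XX mean was higher at E12.5 than at E13.5 and in 35 the reverse. The XX mean at E11.5 was above that at E15.5 in 57 genes.

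All 6 XX libraries of E12.5 and E13.5 lay above all 6 of E11.5 and E15.5 for 59 of the 100 genes. Over the 15305 eligible symbols with at least 1 TPM in any library this share was 1.63%, and since the rule used these values nothing is read from the difference. Of the 41 genes whose libraries overlapped, 16 no longer overlapped once XX E11.5 replicate 2 was set aside, among them Nmnat2, Ass1, Gjb5, Haao, Plin1 and Tgfbi. XX E11.5 replicate 2 was the highest of its group for 75 of the 100 genes, against 29.4% of symbols with at least 1 TPM. The spread at XX E11.5 was wide for these genes, with a median coefficient of variation of 41.7%, compared with medians of 15.0% (E12.5), 9.89% (E13.5) and 16.2% (E15.5). Over all symbols with at least 1 TPM the medians at the same stages were 24.7%, 13.1%, 11.02% and 14.8%.

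The choice of genes depended on the XX libraries used. Leaving out 1 library of E11.5 returned 77 to 80 of the 100 genes, and leaving out 1 of E15.5 returned 80 to 92. XX E11.5 replicate 2 held the fewest erythroid transcripts and the most Foxl2 of its group. With this replicate standing alone for E11.5, the rule returned 42 of the 100 genes. No other stage was cut to 1 library, so the 42 does not set E11.5 apart from them. Rescaling TPM after removing the erythroid and immune markers returned 91 of them. The choice with 1 replicate for E11.5 and the rescaling were added after seeing the data.  In bulk RNA, fewer cells of a type and less RNA per cell cannot be told apart. The genes just inside the threshold were Ppp1r15a at 0.50, Tgfbi at 0.50, Junb at 0.50, Itga11 at 0.49 and Cpsf4l at 0.48. Those just outside were Myo1a at 0.48, Socs3 at 0.48, Ubxn10 at 0.48, Adm at 0.48 and Ptges at 0.48, so the edge of the list falls where scores are nearly equal.

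**Figure D1:**
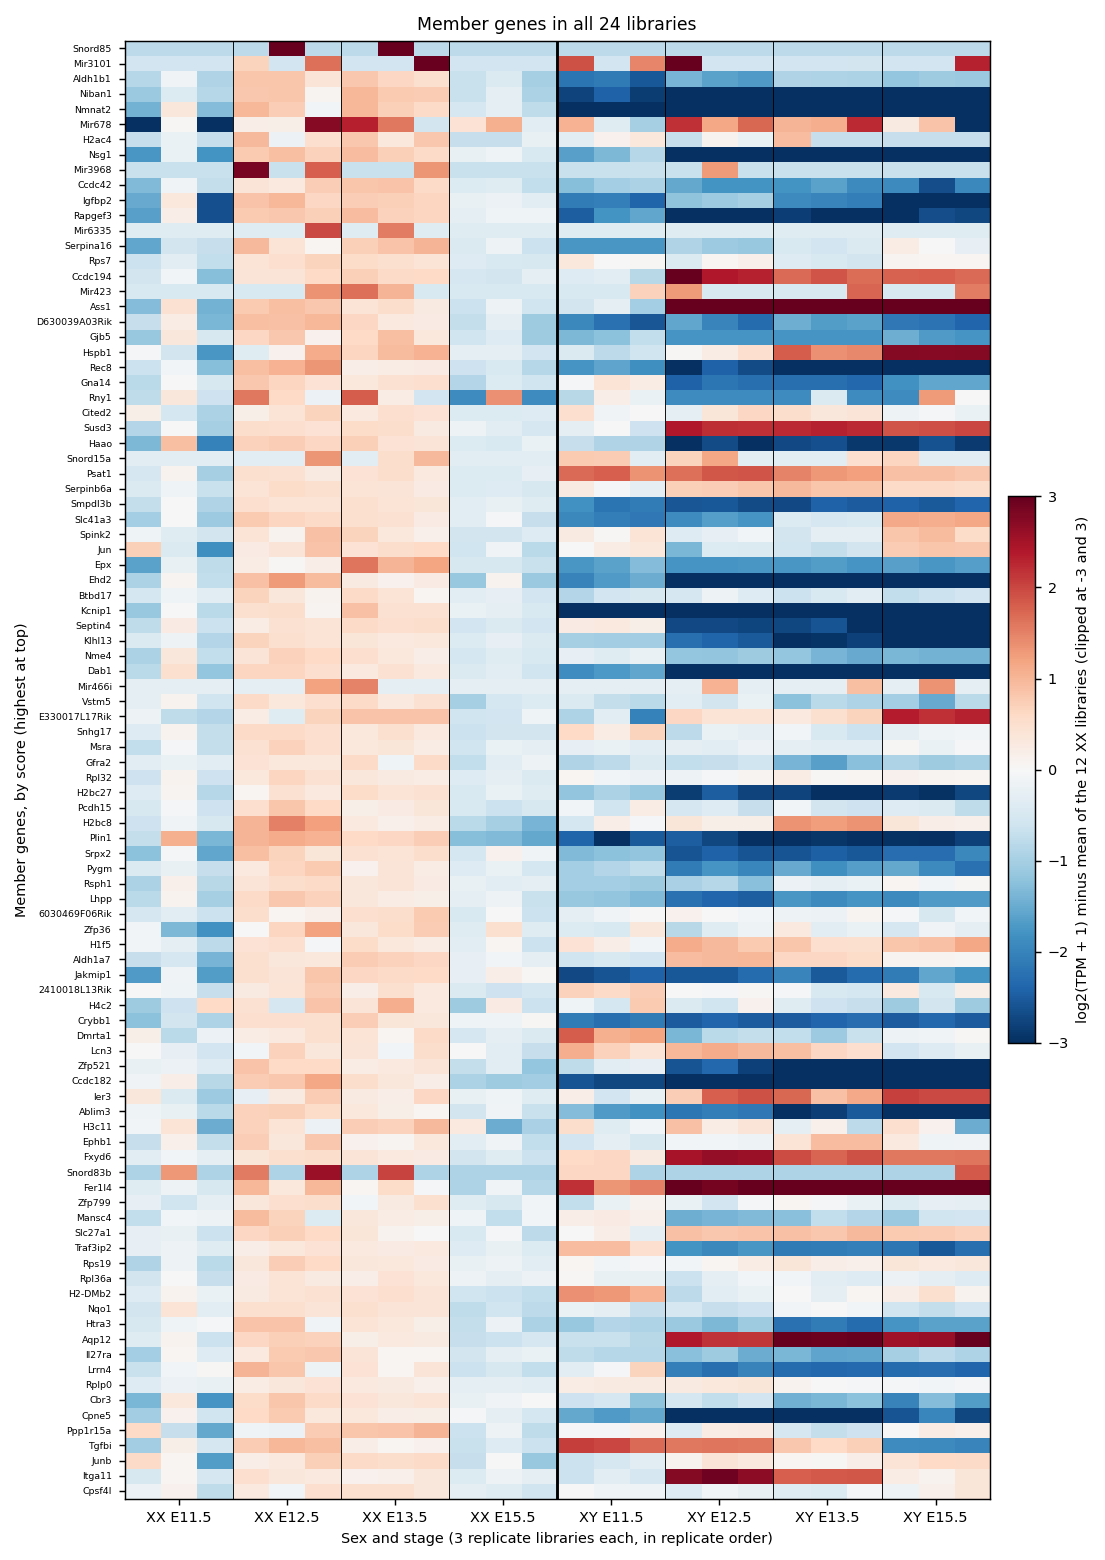
Heat map of 96 of the 100 genes (rows, by score) in 24 libraries (columns, 3 per sex and stage), as log2(TPM + 1) minus the gene's mean over the 12 XX libraries, clipped at -3 and 3. XX columns of E12.5 and E13.5 are above the XX mean in most rows, XX E11.5 replicate 2 is paler than its neighbours, and the XY columns show blocks of genes far below and a smaller set far above the XX mean.

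Whether the XX peak had a counterpart in Sertoli cells was tested with edgeR's quasi-likelihood test on the deposited estimated counts, with Benjamini-Hochberg adjustment over 16190 genes. The contrast set the mean of XY E12.5 and E13.5 against the mean of XY E11.5 and E15.5, and 90 of the 100 genes could be tested. At an adjusted p under 0.05, 24 genes were higher in XY at E12.5 and E13.5 (26.7% of the 90, against 22.4% of all genes tested) and 29 were lower (32.2%, against 19.9%). The median log2 change of the 90 was -0.04, against 0.01 over all genes tested. The genes thus did not share a peak in XY, and their number moving up was near the background. The count filter used all 8 groups, so genes near absent in XY, such as Nmnat2, were tested because of their XX counts. Nothing is read from the larger share called lower. With the scoring formula applied to the XY columns, 14 genes scored above 0, against 11.6% of the 15305 symbols, and 2 genes, Mir678 and Itga11, were among the 100 highest in XY (2% of each list). All 6 mid-stage XY libraries lay above the 6 outer ones for 6 genes (background 3.95%) and below them for 10 (background 5.44%).

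Between XY E11.5 and E12.5, 33 of the 90 genes fell (36.7%, background 24.8%) and 22 rose (24.4%, background 27.1%). From E12.5 to E13.5, 11 rose (background 8.02%; 6 without XY E12.5 replicate 3 and 7 without XY E13.5 replicate 3) and 15 fell (background 8.62%), and from E13.5 to E15.5, 13 rose (background 11.51%) and 14 fell (background 9.79%). Of the 61 member genes with at least 10 counts in every XY library, a filter that leaves out genes that fell to low counts, 31.1% fell between E11.5 and E12.5, against 25.8% of all genes under it. Some markers of other cells fell in XY at the same step, by summed TPM: the interstitial, mesonephric, steroidogenic and germ cell lists. The sums of endothelial, immune, erythroid, neural and surface epithelium markers overlapped between E11.5 and E12.5. The summed TPM of 12 interstitial markers was 519 to 904 at E11.5 and 41.6 to 49.5 at E12.5, and 11 of the 12 were lower at the middle stages. Mesonephric markers, all 8 of which were lower, summed to 100.4 to 105 TPM and then 17.9 to 19.1 TPM. Their part in the XY decreases was not tested.

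Over the 3 steps, 23 of the 90 genes passed in none (25.6%, background 35.9%), 18 fell at the first step only (20%, background 15.8%) and 9 rose at that step only (10%, background 16.9%). A fall at every step was called in 5 genes, among them Rec8, Klhl13, Zfp521 and Ablim3 (5.56%, background 0.716%). The remaining genes were spread over other sequences of steps with at most 4 genes each.

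**Figure D2:**
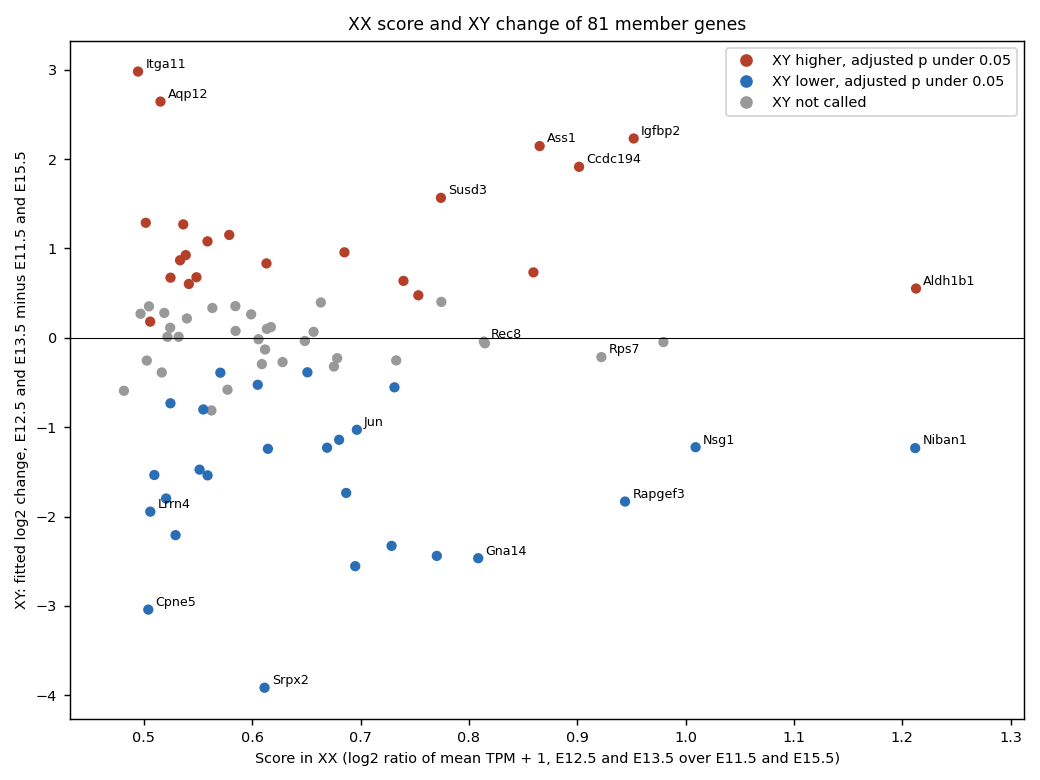
Score of each gene in XX (horizontal axis, log2 units) against its fitted log2 change in XY between the middle and the outer stages (vertical axis), for 81 tested genes with counts in every XY group. Points lie on both sides of 0 over the whole range of scores, from Itga11 at 2.98 to Srpx2 at -3.91.

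Of 15 metabolic enzymes and lipid genes, 9 had XX libraries that did not overlap, as did 59 of the whole list of 100. The rule used these values, so such counts, here and for the groups below, are a description only. Aldh1b1, a mitochondrial aldehyde dehydrogenase with a score of 1.21, was at 102, 173 and 99.3 TPM in the 3 XX libraries of E11.5, 332, 329 and 243 TPM at E12.5, 325, 288 and 258 TPM at E13.5 and 117, 136 and 92.0 TPM at E15.5. Every middle library was above every outer one, and the highest outer value came from E11.5 replicate 2. In XY it rose from 40.1, 41.5 and 30.8 TPM at E11.5 to 69.4, 60.0 and 56.6 TPM at E12.5 (log2 change 0.92, SE 0.20, adjusted p = 0.00056) and further at E13.5 (log2 change 0.61, SE 0.20, adjusted p = 0.039), without passing the test afterwards (log2 change -0.18, SE 0.20, adjusted p = 0.58). XX libraries were thus above XY libraries at every stage, with the widest gap at E12.5.

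Nmnat2, which makes NAD, was at 4.07, 16.2 and 4.54 TPM in XX at E11.5, 11.9 to 26.1 TPM at E12.5, 19.2 to 26.01 TPM at E13.5 and 6.99 to 10.3 TPM at E15.5. Its E11.5 replicate 2 overlapped the range of E12.5. In XY it was near absent, with 9, 5 and 11 counts at E11.5 and none in any library of E12.5 or E13.5, a level at least 1.93-fold lower at E12.5 when 3 counts per library are taken as the floor. Haao, an enzyme that breaks down kynurenine metabolites, had the same E11.5 pattern in XX, at 2.88, 17.5 and 1.42 TPM, with 11.9 to 15.4 TPM at the middle stages and 6.15 to 7.59 TPM at E15.5. In XY it fell from 4.26 to 5.09 to 0.11 to 0.53 TPM (log2 change -4.63, SE 0.72, adjusted p = 1.8e-05).

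Ass1, the argininosuccinate synthase of arginine and urea metabolism, went against that direction in XY. Its XX values were 3.73, 14.99 and 3.36 TPM at E11.5, 19.2, 20.9 and 19.6 TPM at E12.5, 14.5, 16.03 and 13.2 TPM at E13.5 and 6.46, 9.48 and 6.69 TPM at E15.5. In XY it went from 6.99, 8.65 and 4.80 TPM at E11.5 to 101.43, 115 and 111 TPM at E12.5 (log2 change 4.20, SE 0.37, adjusted p = 1.2e-08) and kept that level at E13.5 (108 to 119.8 TPM) and E15.5 (105 to 108 TPM). Its contrast between middle and outer stages was 2.15 (SE 0.24, adjusted p = 4.7e-07), with E11.5 as the low stage, and neither of the later steps passed the test. Aldh1a7, another aldehyde dehydrogenase, was called both up and later down in XY, from 19.5 ± 1.05 TPM (SD, n = 3) at E11.5 to 57.2 ± 1.48 at E12.5 (log2 change 1.75, adjusted p = 4.8e-09) and down to 30.2 ± 0.524 at E15.5 (log2 change -0.55, adjusted p = 0.011 from E13.5). Slc27a1, a fatty acid transporter, rose in XY at E12.5 (log2 change 1.13, adjusted p = 8.3e-07).

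Plin1, the coat protein of lipid droplets, was at 19.5 to 28.3 TPM in XX at the middle stages and 3.68 to 4.52 TPM at E15.5, with 7.22, 27.2 and 4.20 TPM at E11.5, and at no more than 1.53 TPM in XY. Psat1, of serine synthesis, was the reverse, at 46.0 to 55.1 TPM in XX and 90.5 to 144 TPM in XY at the middle stages. Its XY contrast passed the test (log2 change 0.48, SE 0.14, adjusted p = 0.0081), with E15.5 as the low stage. The XY means were 119 TPM at E11.5, 135 TPM at E12.5, 97.9 TPM at E13.5 and 69.5 TPM at E15.5, and no single step passed the test. In XY, 5 of the 15 were higher at the middle stages (all genes, 22.4%) and 3, Nmnat2, Haao and Lhpp, were lower (all genes, 19.9%).

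Of 10 secreted, matrix and protease genes, 7 had XX libraries without overlap, and in XY at the middle stages 6 were higher and 3 lower, where 22.4% and 19.9% of all genes tested were. Igfbp2, which binds insulin-like growth factors, was at 118, 422.8 and 54.1 TPM in XX at E11.5, 622, 680.1 and 526 TPM at E12.5, 571, 562 and 536 TPM at E13.5 and 293, 301 and 267 TPM at E15.5. The E11.5 libraries differed among themselves more than any other group, with replicate 2 above all of E15.5. In XY it was highest at E12.5, below the XX level: 78.5, 82.1 and 63.5 TPM at E11.5, 148, 159.9 and 170.2 TPM at E12.5, 89.6, 85.5 and 80.7 TPM at E13.5 and 10.01, 8.75 and 9.83 TPM at E15.5. The contrast passed the test (log2 change 2.23, SE 0.32, adjusted p = 1.4e-05), and the largest step was the fall after E13.5 (log2 change -3.17, SE 0.48, adjusted p = 9e-05).

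Tgfbi, an adhesive matrix protein, was high in XY from the start. Its XY values were 263, 249.8 and 200.4 TPM at E11.5, 185 to 188 TPM at E12.5, 93.5 to 109 TPM at E13.5 and 14.9 to 15.9 TPM at E15.5, a decline called from E12.5 on (log2 change -0.91, SE 0.21, adjusted p = 0.0045 and then log2 change -2.73, SE 0.22, adjusted p = 5.7e-08). The middle stages were above the mean of the outer ones (log2 change 1.29, adjusted p = 6.1e-07) although E11.5 was the highest stage. In XX it was at 29.4, 69.2 and 43.2 TPM at E11.5, 105 to 124 TPM at E12.5, 64.2 to 70.7 TPM at E13.5 and 38.6 to 46.8 TPM at E15.5.

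Serpina16, a member of the serpin family, was at 0.15, 1.29 and 1.07 TPM in XX at E11.5, 2.50 to 5.61 TPM at E12.5, 4.51 to 5.86 TPM at E13.5 and 1.16 to 2.01 TPM at E15.5. In XY it had no count in the 3 libraries of E11.5 and 0.53 to 0.79, 1.25 to 1.48 and 1.86 to 2.90 TPM afterwards, at least 6.16-fold higher at E12.5 and at least 26.6-fold higher at E15.5 with the floor of 3 counts per library. Its XY libraries were higher at each later stage without overlap, and the first step alone passed the test. Srpx2, a secreted sushi-repeat protein, went down in XY from 75, 82 and 85 counts at E11.5 to 0, 4 and 0 at E12.5 (log2 change -5.02, adjusted p = 1.4e-05).

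Of 13 receptors, adhesion and signalling genes, 8 were lower in XY at the middle stages (all genes tested, 19.9%) and 2 were higher, Itga11 and Ephb1 (all genes, 22.4%), with a median log2 change of -1.23 against 0.01 over all genes. Rapgef3, the cAMP-activated exchange factor EPAC1, was at 3.59, 15.3 and 1.28 TPM in XX at E11.5, 23.3, 23.6 and 22.2 TPM at E12.5, 25.7, 21.7 and 21.2 TPM at E13.5 and 10.5, 11.8 and 11.9 TPM at E15.5. In XY it fell from 1.52, 3.08 and 3.78 TPM to 0.64, 0.28 and 0.32 TPM at E12.5 (log2 change -2.89, SE 0.62, adjusted p = 0.0006) and stayed at 1.23 TPM or less. Gna14, the alpha subunit of a Gq-class G protein, was at 3.58 to 7.18 TPM in XX at E11.5, 8.96 to 12.99 TPM at the middle stages and 3.36 to 5.08 TPM at E15.5. Its XY values were 6.81, 9.66 and 8.34 TPM at E11.5, 0.50, 0.78 and 0.69 TPM at E12.5, 0.69, 0.67 and 0.57 TPM at E13.5 and 1.30, 1.75 and 1.74 TPM at E15.5, so the middle stages formed a trough (log2 change -2.47, SE 0.18, adjusted p = 1e-09).

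Itga11, a collagen-binding integrin subunit, had the largest XY rise of the group and a score of 0.49 in XX. Its XX values were 1.66, 2.84 and 1.61 TPM at E11.5, 4.22, 3.66 and 3.49 TPM at E12.5, 3.03, 3.13 and 3.69 TPM at E13.5 and 1.76, 2.34 and 2.02 TPM at E15.5. In XY it rose from 1.37, 1.96 and 1.62 TPM at E11.5 to 23.8, 26.97 and 22.8 TPM at E12.5 (log2 change 4.10, SE 0.20, adjusted p = 9.2e-13), and fell to 11.9, 12.2 and 12.47 TPM (log2 change -1.04, SE 0.18, adjusted p = 0.0003) and 3.31, 2.99 and 3.74 TPM (log2 change -1.86, SE 0.18, adjusted p = 4.3e-07). The peak was much higher in XY than in XX, where the rule had fixed it. Itga11 was returned in 4 of the 12 choices that left out 1 XX library. Dab1, an adaptor of reelin receptors, was at 19.4, 48.4 and 15.03 TPM in XX at E11.5, 42.5 to 55.0 TPM at the middle stages and 22.6 to 27.6 TPM at E15.5, and fell in XY from 8.75 to 11.1 TPM to 1.44 to 2.30 TPM (log2 change -2.24, SE 0.31, adjusted p = 3.7e-06). Lrrn4, a leucine-rich repeat membrane protein, was at 10.8, 9.29 and 4.22 TPM in XX at E12.5 against 2.65 to 5 TPM at E11.5, with replicate 3 within that range, and in XY it fell from 3.64 to 8.27 TPM to 0.22 to 0.44 TPM (log2 change -3.74, SE 0.37, adjusted p = 3.9e-08). Traf3ip2, an adaptor of the interleukin-17 receptor, was at 64.0 to 75.7 TPM in XX at the middle stages and fell in XY from 79.2 to 107 TPM to 13.9 to 15.9 TPM (log2 change -1.57, SE 0.12, adjusted p = 5.9e-10).

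**Figure D3:**
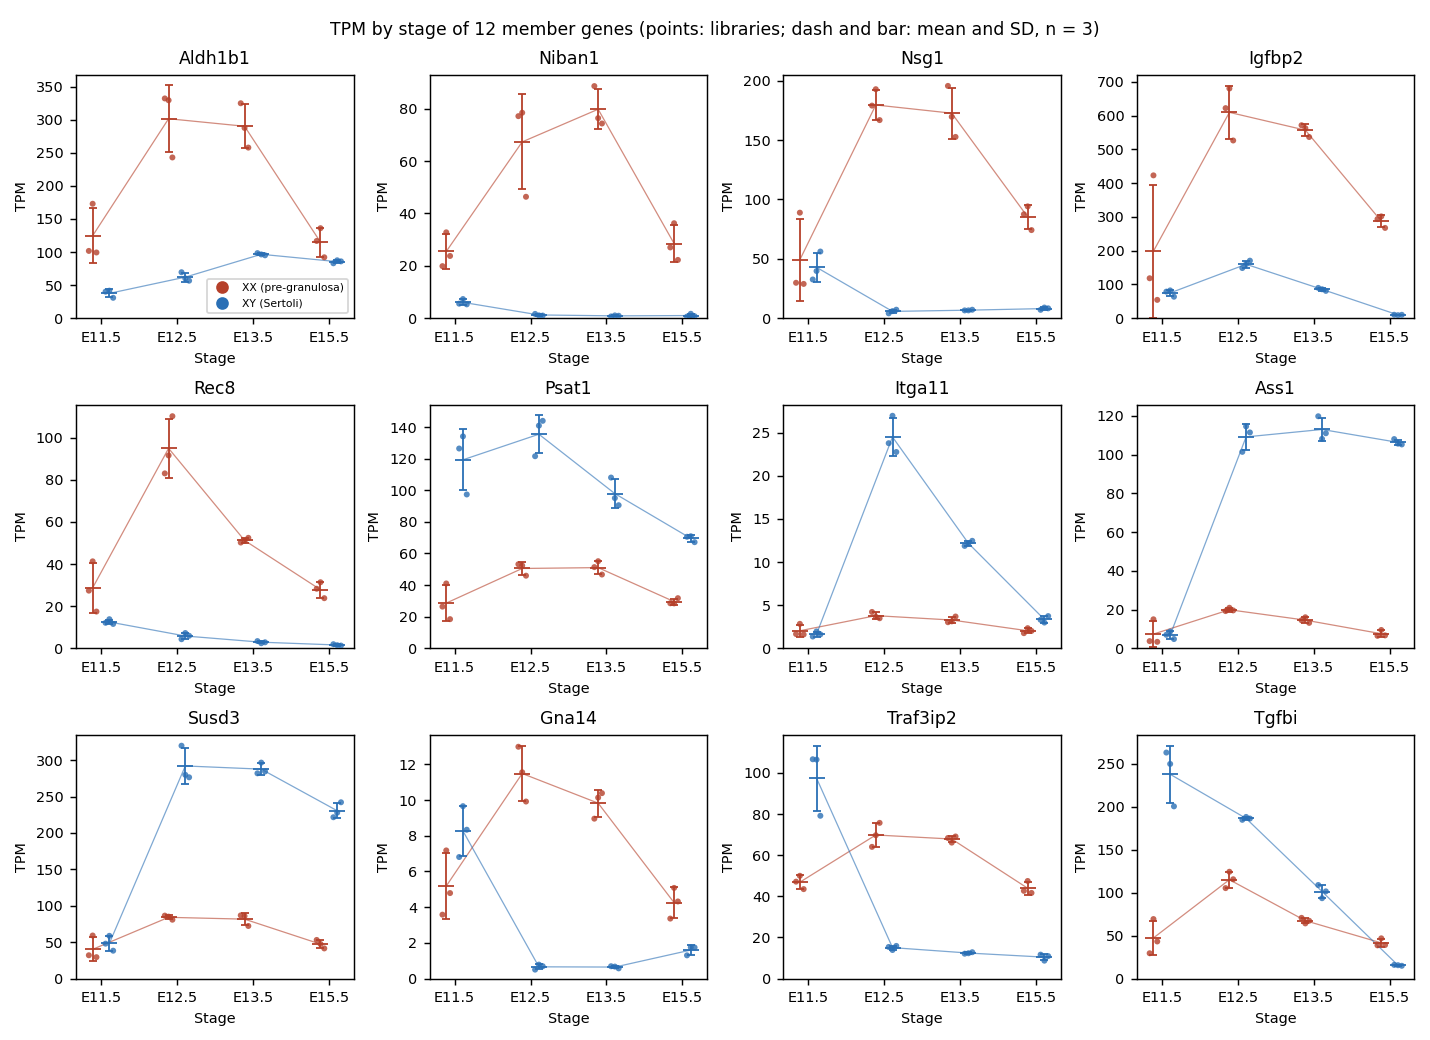
TPM of 12 member genes by stage, XX in red and XY in blue; points are libraries, and dashes with bars are the mean and SD of 3 libraries. From E12.5 on, Aldh1b1, Niban1, Nsg1, Igfbp2 and Rec8 are higher in XX. Psat1, Itga11, Ass1 and Susd3 are higher in XY at E12.5, and Gna14 and Traf3ip2 are high in XY at E11.5 and low from E12.5 on, while Tgfbi declines in XY to its lowest level at E15.5.

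Among 11 channels, junction and other membrane genes, 8 had XX libraries without overlap. Nsg1, a protein of endosomal trafficking best known from neurons, was at 29.8, 88.9 and 28.9 TPM in XX at E11.5, 179, 193 and 167 TPM at E12.5, 196, 169.7 and 153 TPM at E13.5 and 87.5, 94.2 and 74.2 TPM at E15.5. In XY it fell from 32.6, 39.7 and 56.1 TPM to 4.03, 5.91 and 7.11 TPM (log2 change -2.38, SE 0.32, adjusted p = 2.8e-06) and was at 6.51 to 8.92 TPM later. At E11.5 the XX and XY ranges overlapped, and at the later stages they did not. Ehd2, an ATPase of caveolae, was at 15.8, 33.2 and 18.5 TPM in XX at E11.5, 58.9, 78.2 and 62.1 TPM at E12.5, 38.4, 34.3 and 37.7 TPM at E13.5 and 13.7, 33.8 and 14.1 TPM at E15.5, and in XY it fell from 7.07 to 10.6 to 1.09 to 1.80 TPM (log2 change -2.52, SE 0.33, adjusted p = 2.3e-06).

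Gjb5 codes for a connexin, a subunit of gap junctions (chr4:127354809-127358164). Gjb5 was at 0.53, 3.27 and 1.41 TPM in XX at E11.5, 4.24, 4.94 and 2.68 TPM at E12.5, 4.13, 5.29 and 3.18 TPM at E13.5 and 1.22, 1.57 and 0.62 TPM at E15.5. The one E11.5 library that reached the middle stages was replicate 2. In XY, Gjb5 had 13, 17 and 39 counts at E11.5 and none at E12.5 or E13.5, at least 5.31-fold lower at E12.5 with the floor of 3 counts per library. 

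Susd3, a membrane protein with a sushi domain, was at 31.98, 59.1 and 29.4 TPM in XX at E11.5, 72.2 to 86.8 TPM at the middle stages and 41.4 to 53.02 TPM at E15.5. In XY it rose from 47.9, 58.7 and 38.2 TPM to 319.8, 279.8 and 276 TPM (log2 change 2.81, SE 0.21, adjusted p = 8.5e-10) and stayed at 222 to 297 TPM. Fxyd6, a regulator of the sodium-potassium pump, was at 122 to 148 TPM in XX at the middle stages, 80.9 to 96.9 TPM at E11.5 and 65.6 to 78.8 TPM at E15.5. Its XY peak was higher, at 156, 159 and 125 TPM at E11.5, 572, 639 and 619 TPM at E12.5, 399, 349 and 385 TPM at E13.5 and 310.4, 311 and 315 TPM at E15.5 (log2 change 2.25, SE 0.11, adjusted p = 1.5e-12 and then log2 change -0.72, SE 0.11, adjusted p = 9.5e-05). Aqp12, an aquaporin of inner membranes, was at 2.35 to 2.56 TPM in XX at E12.5 and at 0.22 to 0.38 TPM in XY at E11.5, from where it rose to 10.6, 8.78 and 8.73 TPM at E12.5 (log2 change 5.004, SE 0.31, adjusted p = 3.9e-11) and 16.5, 15.7 and 16.8 TPM at E13.5 (log2 change 0.78, SE 0.24, adjusted p = 0.028). These 3 genes were lower in XX than in XY at every stage from E12.5 on.

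Of the 4 transcription factor and chromosome genes, Rec8, the meiotic form of the cohesin kleisin subunit, scored 0.81. It was at 27.4, 41.3 and 17.4 TPM in XX at E11.5, 82.97, 91.5 and 110.1 TPM at E12.5, 50.2, 51 and 52.4 TPM at E13.5 and 28.3, 31.4 and 23.8 TPM at E15.5. The summed TPM of 14 germ cell markers was 17.9 to 45.2 at XX E11.5, 20.4 to 27.8 at E12.5, 25.8 to 50.3 at E13.5 and 170.0 to 250.7 at E15.5. The part of germ cells in the Rec8 values was not tested. In XY, Rec8 fell at each step, from 11.6 to 13.8 TPM at E11.5 to 1.32 to 1.96 TPM at E15.5 (log2 change -0.92, SE 0.23, adjusted p = 0.0019 for the first step). Dmrta1, a DM-domain factor, was at 10.7, 4.92 and 8.15 TPM in XX at E11.5, 9.80 to 14.5 TPM at the middle stages and 6.27 to 7.62 TPM at E15.5. In XY it fell from 35.4, 20.8 and 22.7 TPM to 3.03, 4.96 and 5.37 TPM (log2 change -2.25, SE 0.22, adjusted p = 3e-08) and rose again after E13.5 (log2 change 0.83, SE 0.22, adjusted p = 0.008). Zfp521, a zinc finger factor, was at 65.9 to 78.9 TPM in XX at E12.5 and fell in XY from 25.1 to 35.97 TPM to 5.31 to 7.66 TPM (log2 change -2.13, adjusted p = 7.8e-11).

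The list held 7 immediate-early and stress genes, 4 of them (Jun, Junb, Ier3 and Zfp36) among 15 immediate-early genes examined as a group. Such genes can be induced within minutes of a stimulus, including the handling of tissue. Jun, a subunit of AP-1, was at 1391, 619 and 235 TPM in XX at E11.5, 1006, 1108 and 1526 TPM at E12.5, 1141, 1218 and 1282 TPM at E13.5 and 555, 781 and 477 TPM at E15.5. XX E11.5 replicate 1 was above 5 of the 6 middle libraries and replicate 3 below every other XX library. In XY the course was the reverse, 833, 988 and 1054 TPM at E11.5, 327, 631 and 626 TPM at E12.5, 559, 516 and 570.2 TPM at E13.5 and 1435, 1494 and 1464 TPM at E15.5 (log2 change -1.03, SE 0.26, adjusted p = 0.0031). Junb, another AP-1 subunit, was at 471, 328 and 98.5 TPM at E11.5, 362, 384 and 522 TPM at E12.5, 469, 454 and 473 TPM at E13.5 and 193.98, 315 and 143 TPM at E15.5 in XX and its XY contrast did not pass the test, with 202 to 252 TPM at E11.5, 342 to 412 TPM at E12.5, 325 to 361 TPM at E13.5 and 418 to 476 TPM at E15.5 (log2 change 0.27, SE 0.23, adjusted p = 0.37), although the step from E11.5 to E12.5 did (log2 change 0.96, adjusted p = 0.018).

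Zfp36, which promotes the decay of mRNAs, was at 40.7, 16.4 and 11.7 TPM at E11.5, 42.9, 67.9 and 101.12 TPM at E12.5, 55.6, 64.5 and 74.0 TPM at E13.5 and 33.6, 61.4 and 33.4 TPM at E15.5 in XX, and E15.5 replicate 2 was the one outer library within the range of the middle ones. In XY it was at 31.1 to 55.2 TPM at E11.5, 23.97 to 39.0 TPM at E12.5, 34.4 to 53.5 TPM at E13.5 and 30.2 to 40.1 TPM at E15.5, with overlapping ranges and no call (log2 change 0.08, SE 0.25, adjusted p = 0.84). Ier3, an early response gene, was at 8.29, 4.48 and 2.49 TPM at E11.5, 5.17, 7.92 and 11.48 TPM at E12.5, 7.83, 7.50 and 10.4 TPM at E13.5 and 5.36, 5.75 and 4.74 TPM at E15.5 in XX. Its XY values were 7.45, 3.96 and 5.31 TPM at E11.5, 11.2, 24.6 and 26.9 TPM at E12.5, 23.2, 12.7 and 15.3 TPM at E13.5 and 29.5, 28.3 and 28.3 TPM at E15.5. The XY contrast of Ier3 passed the test (log2 change 0.68, SE 0.25, adjusted p = 0.032) with the highest XY values at E15.5. That call was lost in 12 of the alternatives tried, which was most of them. Over all 15 immediate-early genes, 1 was higher and 4 lower in XY at the middle stages, beside 22.4% and 19.9% of all genes. Their summed TPM in XX was 6163, 3475 and 1150 at E11.5, 4188 to 6570 at E12.5, 6747 to 8267 at E13.5 and 4257 to 5186 at E15.5. Hspb1, a small heat shock protein, was at 149, 105 and 45.0 TPM in XX at E11.5, 119 to 335 TPM at E12.5, 240.1 to 316 TPM at E13.5 and 102 to 125 TPM at E15.5, and in XY it rose at every step to 1029 to 1042 TPM.

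All 6 ribosomal protein genes of the list (among them Rps7, Rps19, Rpl32, Rpl36a and Rplp0) had XX libraries without overlap. Rps7, of the small subunit, was at 277, 351 and 261 TPM in XX at E11.5, 578, 623 and 688 TPM at E12.5, 635, 610.4 and 580.2 TPM at E13.5 and 335, 317 and 310.3 TPM at E15.5. In XY it was at 539, 436 and 446 TPM at E11.5, 321, 455 and 480.3 TPM at E12.5, 332, 315 and 298 TPM at E13.5 and 464, 456 and 455 TPM at E15.5, with a rise at the last step (log2 change 0.45, SE 0.14, adjusted p = 0.031). Rpl32, of the large subunit, was at 2666 to 3581 TPM in XX at the middle stages, 1502, 2467 and 1481 TPM at E11.5 and 1705 to 1868 TPM at E15.5. The summed TPM of 87 ribosomal protein genes, a family taken up after these values were seen, was 40656, 61640 and 39905 in XX at E11.5, 64738 to 74256 at E12.5, 64805 to 66358 at E13.5 and 51202 to 53128 at E15.5. In XY it lay between 51436 and 61026 at all stages, and at the middle stages 12 of the 87 were higher and 2 lower, beside 22.4% and 19.9% of all genes. Ribosomal protein genes have many near-identical pseudogenes, and how the authors divided reads among copies is not given in the sources used here.

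**Figure D4:**
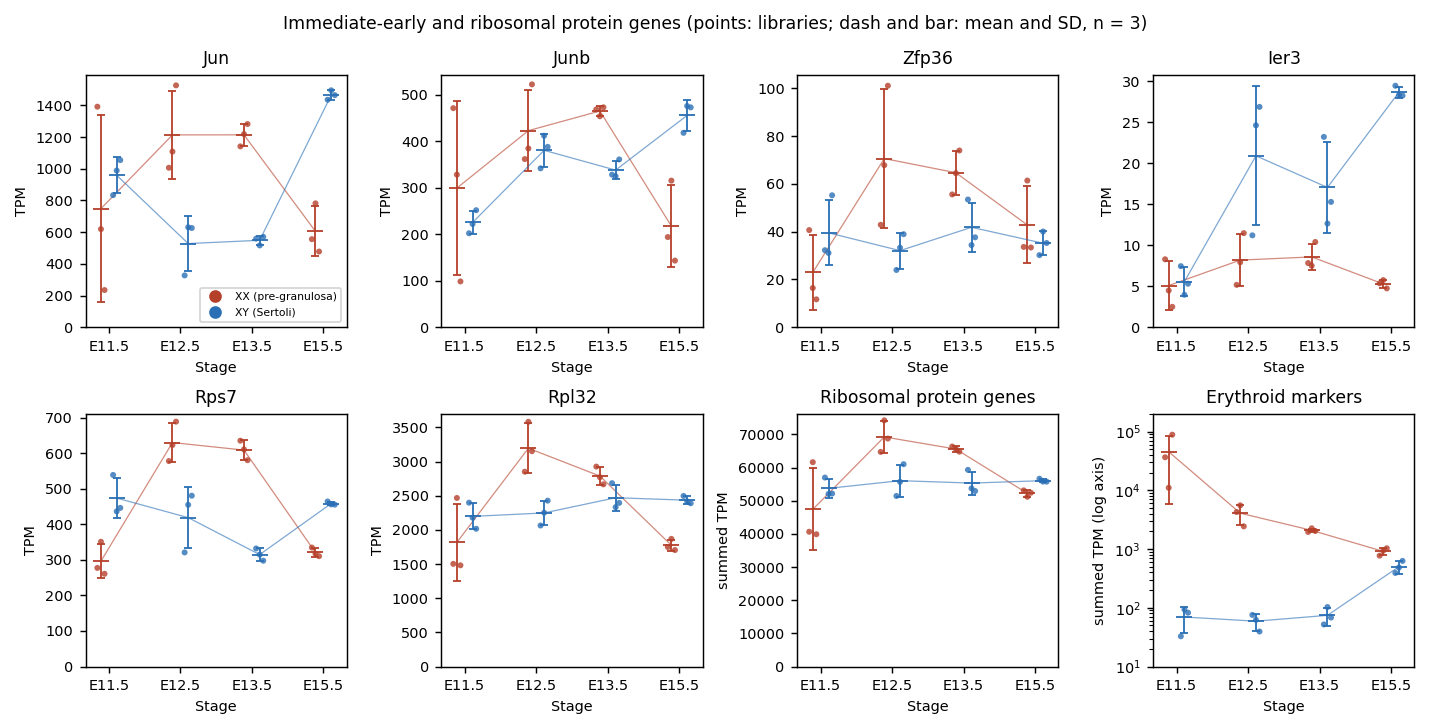
TPM by stage of 4 immediate-early genes and 2 ribosomal protein genes, with the summed TPM of 87 ribosomal protein genes and of 11 erythroid markers (log axis); XX in red, XY in blue, points for libraries, dashes and bars for mean and SD of 3. Jun, Junb and Zfp36 spread widely at XX E11.5, where Jun ran from 235 to 1391 TPM, and the erythroid sum there ran from 11034 to 88286.

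The list held 6 histone genes, of which 2 had XX libraries without overlap. Most histone mRNAs lack a poly(A) tail, and polyadenylated RNA was sequenced. H2ac4 had the highest score of them (1.02) with 0, 0.40 and 0 TPM at E11.5, 2.20, 0.43 and 1.28 TPM at E12.5, 1.83, 1 and 1.84 TPM at E13.5 and 0, 0 and 0.38 TPM at E15.5, which is at most 13.53 estimated counts in a library. H2bc8 had the highest level of the 6 at E12.5, at 33.3, 47.2 and 39.0 TPM in XX at E12.5, 17.8 to 19.9 TPM at E13.5, 10.1 to 14.8 TPM at E11.5 and 5.50 to 8.68 TPM at E15.5. In XY, H2bc8 peaked at E13.5 with 39.5 to 42.04 TPM, and both the step up from E12.5 (log2 change 1.08, SE 0.19, adjusted p = 0.00058) and the step down (log2 change -1.12, SE 0.20, adjusted p = 0.00028) passed the test. H4c2 and H2ac4 lie 5345 bases apart and H1f5 and H3c11 2290 bases apart, all on chromosome 13. Histone genes are near copies of one another, so their separate values are uncertain.

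The 18 remaining genes have varied roles; 14 had XX libraries without overlap, and in XY 5 were higher and 6 lower at the middle stages (all genes, 22.4% and 19.9%). Niban1, a stress-regulated protein, had the second-highest score among protein-coding genes, with 19.9, 32.8 and 23.8 TPM in XX at E11.5, 77.2, 78.5 and 46.4 TPM at E12.5, 88.7, 76.4 and 74.4 TPM at E13.5 and 27.01, 36.3 and 22.2 TPM at E15.5. In XY it fell from 5.53, 7.29 and 5.27 TPM to 1.62, 1.06 and 0.99 TPM (log2 change -2.22, SE 0.25, adjusted p = 2.6e-07) and remained at 1.66 TPM or less. Ccdc42, known from the forming sperm tail, was at 3.05, 8.41 and 5.2 TPM at E11.5, 12.3, 11.4 and 15.9 TPM at E12.5, 16.98, 17.2 and 14.1 TPM at E13.5 and 6.60, 6.90 and 5.13 TPM at E15.5 in XX and between 0.60 and 4.26 TPM in XY, where no step passed the test.

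Ccdc194, a coiled-coil protein, was low in XX, at 2.36, 3.69 and 1.04 TPM at E11.5, 5.47, 5.42 and 6.53 TPM at E12.5, 7.07, 6.33 and 6.53 TPM at E13.5 and 2.50, 2.39 and 3.04 TPM at E15.5. In XY it rose from 2.77, 2.98 and 1.76 TPM to 43.8, 25.1 and 23.3 TPM (log2 change 3.81, SE 0.31, adjusted p = 1.7e-09) and then fell to 14.8 to 17.4 TPM (log2 change -0.99, SE 0.27, adjusted p = 0.015). D630039A03Rik was at 9.15, 18.1 and 5.32 TPM in XX at E11.5, 28.9 to 31.7 TPM at E12.5, 18.5 to 23.98 TPM at E13.5 and 6.78 to 12.3 TPM at E15.5, and in XY its middle libraries, at 2.32 to 4.89 TPM, overlapped the outer ones, at 1.77 to 3.26 TPM, while the contrast passed the test (log2 change 0.73, SE 0.25, adjusted p = 0.022). Klhl13, an adaptor of a ubiquitin ligase, was at 229 to 275 TPM in XX at E12.5 and fell in XY at every step, from 82.7 to 86.3 TPM to 12.54 to 13.4 TPM.

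Set side by side, more members were separated between the sexes at E12.5 and E13.5 than at E11.5, as were more of all symbols. All 3 XX libraries were above all 3 XY libraries for 26 of the 100 genes at E11.5 (16.5% of the 15305 symbols), for 66 genes at E12.5 (40.8%), for 68 genes at E13.5 (35.1%) and for 41 genes at E15.5 (36%). The reverse held for 18 genes at E11.5 (23.3%), for 14 genes at E12.5 (24.8%), for 15 genes at E13.5 (38.6%) and for 31 genes at E15.5 (37.9%). The rule chose genes high in XX at the middle stages, so these counts are a description of the list. The XX libraries at E12.5 and E13.5 were higher than XY for most of the list, and at E15.5 the members called each way were near the shares of all symbols.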

How the data were processed

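RNA-seq of 24 libraries of sorted fetal gonad cells was analysed. The authors deposited estimated counts and TPM values per gene symbol, on build mm10 per the submitters' processing notes. The aligner, counting program and use of strand are not given in the sources used here. Of the deposited estimated counts 17.5% were not whole, and all were rounded before testing. The deposited TPM chose the 100 genes. The members, gene lists and role groups were chosen with earlier results of these data known.

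Counts were tested with edgeR 4.0.16 (R 4.3.3): TMM scaling, filterByExpr on 8 groups, robust quasi-likelihood fit with 1 mean per group (16 residual degrees of freedom, common biological coefficient of variation 17.4%), and Benjamini-Hochberg adjustment over 16190 genes, called at an adjusted p under 0.05. The scripts were tested on simulated data. A count of 0 allows up to 3 counts, which is 0.0805 to 0.266 CPM (counts scaled to the library total) over the libraries; this covers counting error only. Every deposited per-sample column was used.

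Values per library are given for the 20 highest scores, for members of 26 gene lists, and for the 8 largest and 8 smallest XY changes called with at least 5 CPM in the highest XY group. The members whose results are not reported here, 4 in number, stay in every count. Other genes with values were chosen after their values were seen. Alternatives were DESeq2 1.42.0, DESeq2 size factors in edgeR, limma 3.58.1 on log2(TPM + 1) and log2(TPM + 0.1), other count filters, an added threshold of 1 on the log2 change, XY libraries alone, a replicate block, leaving out each library, and for the rule other pseudocounts (0.1 and 5), TMM-scaled CPM and medians. Annotation came from RefSeq on GRCm38.p6, the same assembly as mm10.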

Additional observations from a re-analysis of the deposited data

Results flagged for a closer look

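In 5 genes every XX library of E12.5 and E13.5 was above every XX library of E11.5 and E15.5 while every XY library of the middle stages was below every outer one. The XX direction was fixed by the rule that chose the genes, and the difference between the sexes was not tested. Over the 15305 symbols, all 6 middle XY libraries lay below the 6 outer ones in 5.44%. The share that met both conditions was not taken, so nothing is read from the count. The XY log2 changes between middle and outer stages were -2.47 for Gna14, -3.04 for Cpne5 (a copine, which binds membranes in the presence of calcium), -3.91 for Srpx2, -2.33 for Spink2 (a serine protease inhibitor) and -1.80 for H2-DMb2 (a class II histocompatibility gene). Cpne5 was at 0.12 to 0.53 TPM at the middle XY stages and 1.15 to 3.93 TPM at the outer ones. Srpx2 held 0 to 4 counts in each of the 6 middle XY libraries, and Spink2 0 to 3. H2-DMb2 stood at 0.42, 1.01 and 0.61, 1.23 to 1.61 and 0.12 to 0.22 TPM in XX.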

How the results depend on the processing

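Both the list of genes and some of the XY counts moved with the settings. The rule returned 54 of the 100 genes with a pseudocount of 0.1, 61 on TMM-scaled CPM, 66 on medians and 42 with XX E11.5 replicate 2 standing alone for its group (added after seeing the data), and 77 to 95 when 1 XX library was left out; 40 genes were returned in all 12 of those choices. With an added threshold of 1 on the log2 change, 12 genes were higher in XY at the middle stages, 7 rose and 6 fell from E12.5 to E13.5, and 9 fell from E13.5 to E15.5. No share of all genes was taken under that threshold, so nothing is read from these counts. A filter of at least 5 TPM and 50 counts in XX at E12.5 and E13.5, also added later, kept 66 members. Between E11.5 and E12.5 in XY, 14 of them rose (21.2%, against 33.4% of genes under it) and 27 fell (40.9%, against 20.1%). Between E12.5 and E13.5, 7 rose (10.6%, against 9.01%) and 13 fell (19.7%, against 10.4%). This filter uses the XX stages that chose the members, so nothing is read from it. With at least 10 counts in every XY library, 19 fell from E11.5 to E12.5, of 61 tested. Leaving out 1 XY library gave 20 to 24 higher and 27 to 31 lower at the middle stages, 15 to 18 and 30 to 35 at the first step, 6 to 12 and 10 to 14 at the second (6 without E12.5 replicate 3, 7 without E13.5 replicate 3), and 9 to 13 and 11 to 15 at the last. The other counts stayed within 1.5 times of those given. Of 418 values of 20 named genes under alternatives, 398 kept direction and call, 12 lost a call, all of Ier3 (0.461 and 0.521 by limma, 0.609 with at least 10 counts, 0.514 to 0.686 without 1 library), and Junb gained one with XY libraries alone (0.228). Zfp36, not called, changed sign to -0.022 by limma with either pseudocount and ran from -0.052 to 0.196 without 1 library. Replicate numbers did not pair the libraries: same-numbered libraries correlated at -0.078 to 0.157 in their deviations from group means, and 1 of 18 pairs was over 0.1. With the replicate block, 24 genes were higher and 29 lower at the middle stages, 23 and 33 at the first step, 10 and 14 at the second, and 14 and 16 at the last.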
